A study of Mus musculus with 5 samples.

Results

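Potassium channel genes were taken as every gene of the deposited table whose symbol starts with Kcn, followed by letters and a digit. Kcnj10 and Kcnj13 and the opposite-strand transcripts Kcnmb4os1 and Kcnmb4os2 were left out. The rule uses symbols and no measured value. It found 79 of 19221 genes, and 78 of the 79 are protein coding. At least 1 RPKM (reads scaled by exon length and library total) in at least 1 library was reached by 50 of the 79, against 12783 of all genes. The other 29 stayed below 1 RPKM in every library and are described apart.

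The tissue was the caudate putamen, the main part of the rodent striatum, punched from male C57BL/6 mice aged 9 weeks. A stroke was made on one side by photothrombosis: rose bengal, a light-activated dye given at 100 mg/kg, was excited by a 532 nm laser of 30 mW for 2 min at a depth of 3 mm, which clots the vessels in the beam. The stroke groups were 4 hours, 1 day, 3 days and 10 days after the light, each a pool of 6 animals sequenced as 1 library. Sham was a further library of pooled punches from the left side of the brain, where the laser was given before the dye, and how many animals it holds was not stated in the labels. No genetic change is named for any group, and sham tissue came from the hemisphere opposite a stroke. With 1 library per group there is no replicate error, so no test was made, and every difference below describes these 5 libraries.

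Potassium channels let potassium leave or enter a cell down its gradient and so set the resting potential, end the action potential and limit firing. Voltage-gated alpha subunits form pores that open on depolarisation, and auxiliary subunits bind to them and change their gating or number at the membrane. Inward rectifiers and two-pore-domain channels are open near rest. Calcium- and sodium-activated channels follow the ions that enter during firing. Striatal projection neurons, the main cells of the caudate putamen, are known for strong inward rectifier and A-type potassium currents, which hold them silent between bursts of cortical input. When blood flow stops, potassium leaves the cells and spreads through the tissue.

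Read totals were 45952911, 46323701, 42261786 and 48013847 in the stroke libraries, by time, against 44924676 in sham. One read of a gene of 2 kb was worth 0.0104 to 0.0118 RPKM. The 14 markers of striatal projection neurons summed to 2657 RPKM at 4 hours, 1068 on day 1, 1575 on day 3 and 1776 on day 10, against 2091 in sham. The 6 markers of cortical excitatory neurons summed to 112, 106, 65.4 and 59.9 RPKM at the 4 times, against 70.2 in sham. The 6 choroid plexus markers summed to 740, 305, 20.4 and 3.24 RPKM, against 79.4 in sham. Ttr made up 729, 303, 19.6 and 0.205 RPKM of these sums, against 77.4 in sham, while Aqp1 of the same list was highest at day 10, at 2.45 RPKM, against 0.195 in sham. In bulk tissue, fewer cells of a type and less RNA per cell cannot be told apart.

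Potassium channel genes as a group stood near all other genes at 4 hours, below them at days 1 and 3, and closer to sham at day 10. The summed level of the 79 genes was 531 RPKM at 4 hours, 312 on day 1, 297 on day 3 and 391 on day 10, against 423 in sham. The 4-hour library held the highest sum and the day 3 library the lowest. The median log2 fold of the 50 genes, log2((stroke RPKM + 1) / (sham RPKM + 1)), was 0.25 at 4 hours, -0.41 on day 1, -0.44 on day 3 and -0.12 on day 10. The same medians over all 12783 genes were 0.28, -0.02, 0.12 and 0.07.

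**Figure D1:**
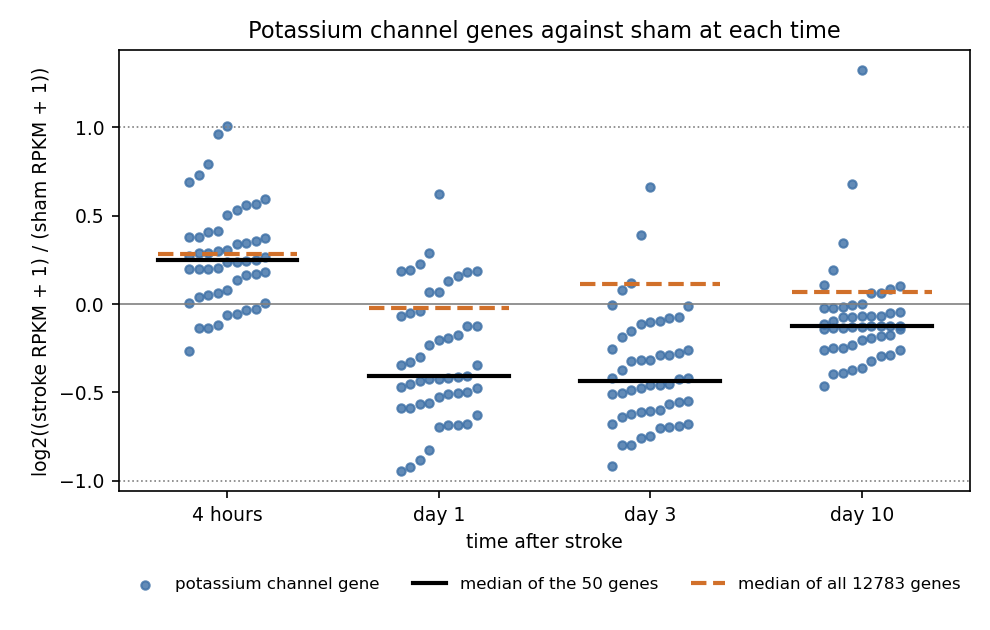
Log2 fold against sham (vertical axis, log2((stroke RPKM + 1) / (sham RPKM + 1))) of the 50 potassium channel genes, 1 point a gene, at the 4 times (horizontal axis). Black bars are the medians of the 50 genes (0.25, -0.41, -0.44 and -0.12), dashed bars the medians of all 12783 genes (0.28, -0.02, 0.12 and 0.07), and dotted lines the 2-fold limits.

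Most differences were smaller than 2-fold. At least 2-fold higher than sham was 1 of the 50 at 4 hours, Kcnk2, where 2.2% of all genes were. None of the 50 was 2-fold higher at day 1, where 3.33% of all genes were, and none at day 3, where 9.04% of all genes were. At day 10 it was 1 of the 50, Kcne1l, where 4.2% of all genes were. At least 2-fold lower were 0 of the 50 at every time, where 1.09%, 1.35%, 0.618% and 0.172% of all genes were at 4 hours, day 1, day 3 and day 10. All these counts add 1 RPKM to both levels, which shrinks the fold of genes of few RPKM. By the ratio of RPKM alone, some genes were more than 2-fold lower, such as Kcna5 at day 1 (0.381) and Kcnh1 at day 3 (0.402). By that ratio Kcnk6, described below, was more than 2-fold higher at days 3 and 10.

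Within that limit, the direction of the genes differed from that of the table. At day 1, 39 of the 50 (78%) were lower than sham by any amount, against 52.3% of all genes, and at day 3 it was 46 of the 50 (92%), against 41% of all genes. At day 10 it was 41 of the 50 (82%), against 39% of all genes. At 4 hours it was 8 of the 50 (16%), against 21.9% of all genes. A log2 fold of -0.5 or less, a limit chosen after the values were seen, was reached by 16 genes (32%) at day 1 and 20 genes (40%) at day 3, against 11.7% and 7.66% of all genes. It was reached by 0 of the 50 at 4 hours and at day 10, where 4.08% and 1.12% of all genes reached it. A log2 fold of 0.5 or more was reached by 10 genes (20%) at 4 hours, against 25.7% of all genes. At day 1 it was 1 gene, Kcnk4, against 14% of all genes, and at day 3 it was 1 gene, Kcnk13, against 26.2%. At day 10 it was 2 genes, Kcnk6 and Kcne1l, against 13.1%. Kcnk6 reached 1 RPKM at day 10 alone, and Kcnma1, counted below sham at every time, in sham alone. Each of these 2 genes is among the 50 only through the library where it was highest.

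The 4-hour values moved with the scaling of the libraries. Median-of-ratios scaling, which sets the typical gene equal between libraries, shifted the median of all genes to 0.01 at 4 hours, 0.05 on day 1, 0.01 on day 3 and -0.04 on day 10. On that scale the median of the 50 genes was -0.02, -0.33, -0.52 and -0.23 at the 4 times. At 4 hours, 42 of the 50 were above sham and 8 below without this scaling (84% above, against 78.1% of all genes). With it, 24 were above and 26 below (52% below, near the 48.8% of all genes). At -0.5 or less were then 11 genes (22%) at day 1 and 27 genes (54%) at day 3, against 8.77% and 11.8% of all genes.

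Ranked over the 5 libraries, the 4-hour library held the highest level of 37 of the 50 genes (74%), against 48.8% of all genes. The day 3 library held the lowest level of 31 of the 50 (62%), against 18.3% of all genes. The day 1 library held the lowest of 16 (32%), close to the 33.6% of all genes. Sham held the lowest of 0 of the 50, against 24.8% of all genes. With median-of-ratios scaling the day 3 library held the lowest level of 38 (76%), against 27.5% of all genes, while the 4-hour library held the highest of 16 (32%), against 26.6%. Sham then held the highest of 19 (38%), against 14.2% of all genes.

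**Figure D2:**
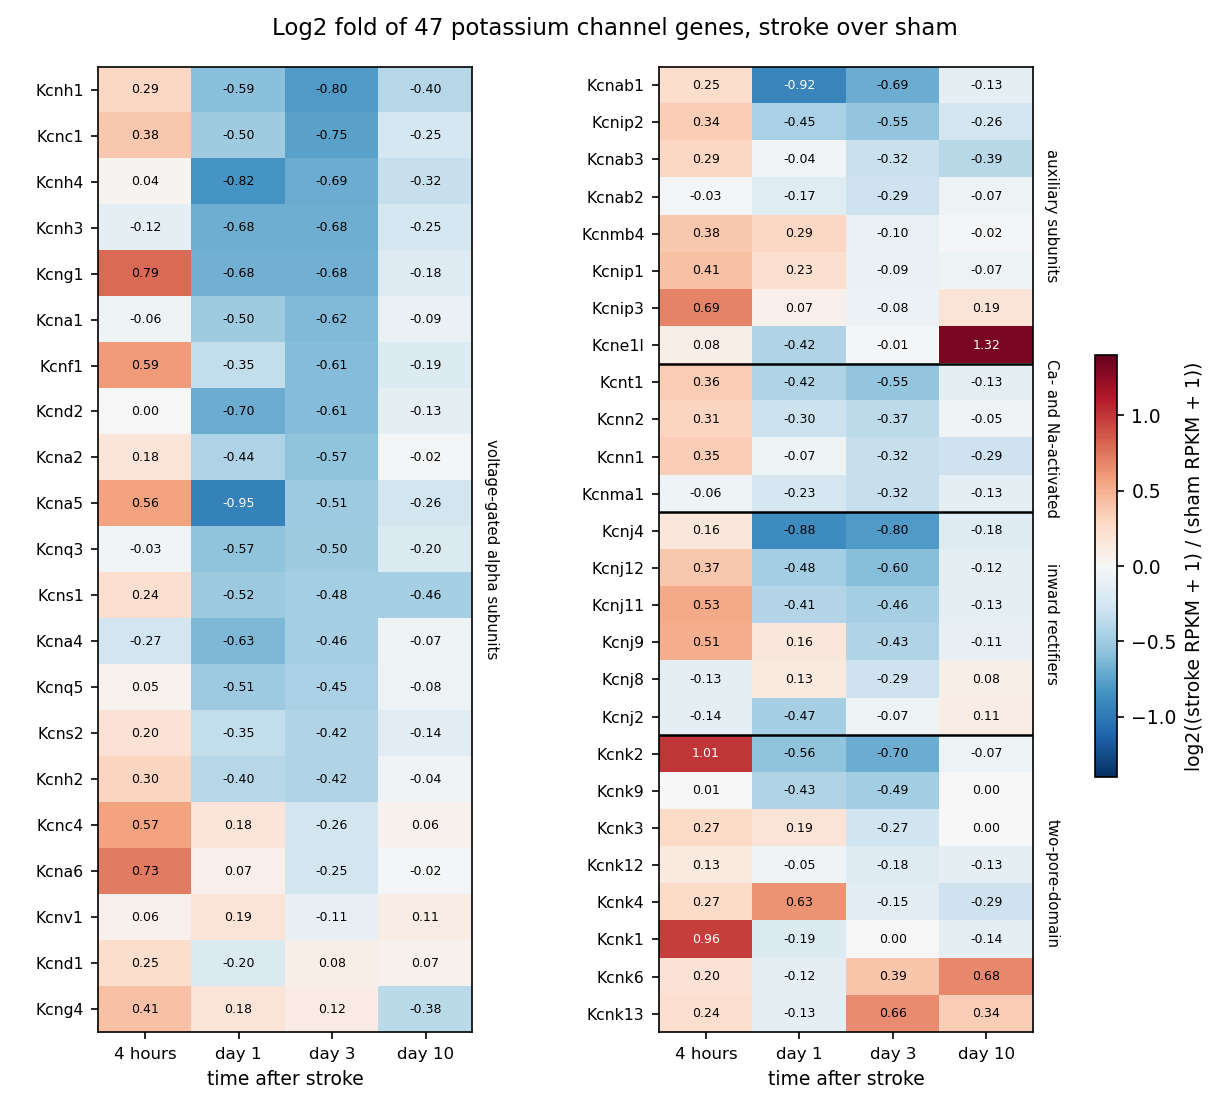
Log2 fold against sham of each of 47 of the 50 potassium channel genes (rows, by channel class and then by the day 3 value) at the 4 times (columns). Blue is below sham and red above: the voltage-gated subunits are mostly blue at days 1 and 3, down to -0.95 for Kcna5 at day 1, and the strongest red is Kcne1l at day 10, with 1.32.

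The 4 genes furthest below sham at day 1, between -0.95 and -0.82, were Kcna5, Kcnab1, Kcnj4 and Kcnh4. Kcne1l stood furthest above sham at day 10 and Kcnk13 at day 3. The promoters of these 6 genes are given as examples of the genes that set the extremes. Each runs from 250 bases before to 50 bases after a transcript start, from RefSeq on the build GRCm38.p6, read 5′ to 3′ on the gene's strand. Capitals mark a GC box (GGGCGG), the site letters of the Sp family, or TGACG, the core of a cAMP response element, on either strand. They lie at chr6:126535506-126535805 (minus strand, Kcna5), chr3:64948962-64949261 (plus, Kcnab1, the first of its 3 listed starts), chr15:79505192-79505491 (minus, Kcnj4), chr11:100759729-100760028 (minus, Kcnh4), chrX:142306149-142306448 (minus, Kcne1l) and chr12:99964249-99964548 (plus, Kcnk13).
Kcna5: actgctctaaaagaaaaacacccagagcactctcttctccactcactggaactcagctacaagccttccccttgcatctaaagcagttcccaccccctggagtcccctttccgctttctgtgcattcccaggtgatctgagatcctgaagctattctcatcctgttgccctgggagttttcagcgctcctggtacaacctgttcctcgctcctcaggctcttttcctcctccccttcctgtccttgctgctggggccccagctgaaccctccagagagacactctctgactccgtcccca
Kcnab1: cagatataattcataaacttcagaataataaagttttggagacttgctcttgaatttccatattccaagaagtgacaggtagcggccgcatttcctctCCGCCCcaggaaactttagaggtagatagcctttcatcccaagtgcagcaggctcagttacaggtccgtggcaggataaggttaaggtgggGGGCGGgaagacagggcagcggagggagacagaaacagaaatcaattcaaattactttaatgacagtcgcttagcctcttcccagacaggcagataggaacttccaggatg
Kcnj4: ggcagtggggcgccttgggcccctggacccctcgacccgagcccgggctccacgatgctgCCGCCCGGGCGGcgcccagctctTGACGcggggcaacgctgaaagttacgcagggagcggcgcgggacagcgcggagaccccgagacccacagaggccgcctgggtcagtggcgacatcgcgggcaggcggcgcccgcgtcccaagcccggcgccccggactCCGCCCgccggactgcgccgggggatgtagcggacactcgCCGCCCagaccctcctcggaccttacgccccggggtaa
Kcnh4: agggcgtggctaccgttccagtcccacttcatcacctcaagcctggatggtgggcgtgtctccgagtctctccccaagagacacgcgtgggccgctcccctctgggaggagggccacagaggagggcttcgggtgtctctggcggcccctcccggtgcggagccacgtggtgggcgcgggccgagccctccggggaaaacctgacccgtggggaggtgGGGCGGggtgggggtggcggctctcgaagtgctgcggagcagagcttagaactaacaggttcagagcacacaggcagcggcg
Kcne1l: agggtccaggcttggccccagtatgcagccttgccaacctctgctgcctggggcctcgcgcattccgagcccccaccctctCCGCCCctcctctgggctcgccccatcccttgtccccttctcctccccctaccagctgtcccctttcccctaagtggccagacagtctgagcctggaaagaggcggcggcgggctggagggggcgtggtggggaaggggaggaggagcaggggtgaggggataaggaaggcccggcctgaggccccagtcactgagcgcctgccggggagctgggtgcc
Kcnk13: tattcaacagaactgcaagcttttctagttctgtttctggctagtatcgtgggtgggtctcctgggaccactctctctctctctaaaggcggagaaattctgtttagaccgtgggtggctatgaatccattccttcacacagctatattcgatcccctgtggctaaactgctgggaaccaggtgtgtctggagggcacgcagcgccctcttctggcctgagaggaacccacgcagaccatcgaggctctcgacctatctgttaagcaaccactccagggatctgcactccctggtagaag
The Kcnj4 promoter held 4 GC boxes and 1 TGACG, and the first one of Kcnab1 2 GC boxes. Those of Kcnh4 and Kcne1l held 1 GC box each, and those of Kcna5 and Kcnk13 none of the motifs searched. The other Kcnab1 promoters held no GC box: promoter 2 had none of the motifs, and promoter 3 had GAGGAAG and TATAAA, described below. Kcnab1 as counted here starts at base 65109384, nearest to promoter 2 (chr3:65108764-65109063).

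RefSeq promoters were matched for 57 of the 79 genes, as 82 promoters, and 7 motifs were searched on both strands. GGGCGG was in 50.0% of the 82, against 35.7% of all 32851 promoters. The median GC content was 58.3% in the 82 and 52.7% in all. The TATA letters TATAAA were in 3.66%, against 13.6% of all. TGACG was in 18.3%, against 20.8%, and TGACGTCA, which holds TGACG, was in 0 of the 82, against 1.79%. GAGGAAG, the core read by the myeloid factor PU.1, was in 13.4%, against 13.6%. TGANTCA, the AP-1 letters, was in 4.88%, against 7.81%, and GCGTGGGCG, the EGR letters, was in 0 of the 82, against 0.612%. Of the 82 promoters, 46 belong to genes analysed, and GAGGAAG was in 10 of these (21.7%). In the 46, GGGCGG was in 52.2%, TGACG in 15.2%, and TATAAA and TGANTCA in 4.35% each. The share of all promoters includes those of genes not analysed. All these shares are of letter matches in a window and not of measured binding sites.

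Among the voltage-gated alpha subunits, 24 of 35 genes were analysed, and their median log2 fold was 0.20 at 4 hours, -0.51 on day 1, -0.54 on day 3 and -0.16 on day 10. At 4 hours it was -0.07 with median-of-ratios scaling. The class makes up 24 of the 50 potassium channel genes analysed. It held 14 of the 20 genes at -0.5 or less at day 3, a limit that 7.66% of all genes reached. Kcnh3, the voltage-gated gene of highest sham level, encodes a subunit of the Elk type. It was at 28.2 RPKM at 4 hours, 18.8 on day 1, 18.8 on day 3 and 25.7 on day 10, against 30.7 in sham, lowest at days 1 and 3. Its ratio of RPKM to sham was 0.610 at day 1 (95% interval 0.580 to 0.642, for counting error alone, as are all intervals here). Kcnh4, another Elk gene and one with strong expression in striatum, was at 5.28, 2.45, 2.78 and 3.87 RPKM at the 4 times, against 5.10 in sham. Its ratio to sham was 0.480 at day 1 (0.407 to 0.564). Kcnh1, an ether-a-go-go gene, was at 3.20, 1.29, 0.981 and 1.61 RPKM, against 2.44 in sham, and its ratio of 0.402 at day 3 (0.331 to 0.486) was the lowest of the voltage-gated genes analysed at that time.

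Kcnq3 and Kcnq5 contribute to the M current, which neurotransmitters switch off to raise excitability. Kcnq3 was at 1.84 RPKM at 4 hours, 0.959 on day 1, 1.05 on day 3 and 1.52 on day 10, against 1.90 in sham. Kcnq5 was at 1.65, 0.797, 0.874 and 1.43 RPKM, against 1.56 in sham, and both genes were below sham at days 1 and 3.

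Modifier subunits form no channel alone and join other voltage-gated subunits. Kcng1 was at 8.96, 2.61, 2.60 and 4.10 RPKM, against 4.76 in sham, and Kcnf1 at 6.96, 3.15, 2.46 and 3.63 RPKM, against 4.28 in sham. Both were highest at 4 hours and below sham at days 1 and 3. Kcns1 was at 6.21, 3.25, 3.39 and 3.43 RPKM, against 5.11 in sham, and had the lowest log2 fold of the 50 genes at day 10, -0.46. Kcng4, a further modifier, was at 1.53, 1.16, 1.06 and 0.465 RPKM, against 0.901 in sham, lowest at day 10. Kcnv1, another modifier, lay between 1.57 and 2.17 RPKM in all 5 libraries.

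Kcnc1 encodes a fast channel that lets interneurons fire at high rates. It was at 7.54 RPKM at 4 hours, 3.64 on day 1, 2.91 on day 3 and 4.52 on day 10, against 5.56 in sham, lowest at day 3, with a ratio of 0.523 to sham (0.474 to 0.579). The 7 markers of striatal interneurons summed to 484, 438, 383 and 248 RPKM, against 289 in sham. Sst alone made up 327, 277, 235 and 167 RPKM of these sums, against 185 in sham. Of the 6 markers analysed, 3 were above sham and 3 below at day 1, and 4 above and 2 below at day 3. On the log2 scale at days 1 and 3, Pvalb was at 0.69 and 0.04 and Nos1 at -0.73 and -0.76. The part of interneurons in the level of Kcnc1 was not tested.

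The Kcna genes, the Shaker family, differed among themselves. Kcna5 had the lowest log2 fold of the 50 genes at day 1, -0.95, with 5.63 RPKM at 4 hours, 1.34 on day 1, 2.16 on day 3 and 2.77 on day 10, against 3.50 in sham. Its ratio to sham at day 1 was 0.381 (0.297 to 0.492). Kcna1 and Kcna2, which act along axons, were at -0.62 and -0.57 on the log2 scale at day 3. Kcna4, an A-type channel of fine processes, was at 1.29, 0.777, 0.999 and 1.62 RPKM, against 1.75 in sham, lowest at day 1. Kcna6 was at 7.73, 4.51, 3.41 and 4.17 RPKM, against 4.26 in sham, and so above sham at 4 hours and near it at day 1. The exons of Kcna6 share 39.6% of their length with a gene on the opposite strand, and since it is not given whether the counting used strand, the reads of these genes cannot be told apart.

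Some of these genes lie side by side. Kcna5, Kcna1 and Kcna6 are neighbours on chromosome 6, with 104985 bases between Kcna5 and Kcna1 and 61945 between Kcna1 and Kcna6. Their log2 folds at day 1 were -0.95, -0.50 and 0.07, so neighbouring genes of the cluster did not have like values at that time. They were 0.56, -0.06 and 0.73 at 4 hours, -0.51, -0.62 and -0.25 at day 3, and -0.26, -0.09 and -0.02 at day 10. Kcna5 and Kcna1 were thus closer at day 3 than at day 1, and the value of Kcna6 is limited by the overlap given above. Kcnj16 and Kcnj2 lie 38196 bases apart on chromosome 11, with log2 folds at day 3 of 0.31 and -0.07.

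Of 14 auxiliary subunit genes, 8 were analysed, with a median log2 fold of 0.32 at 4 hours, -0.11 on day 1, -0.20 on day 3 and -0.07 on day 10. Kcnab2, a beta subunit of Shaker channels, was at 61.3, 55.2, 50.9 and 59.5 RPKM at the 4 times, against 62.4 in sham, and its log2 fold was no lower than -0.29 at any time. Kcnab1, a beta subunit that gives Shaker channels fast inactivation, was at 4.59, 1.48, 1.91 and 3.29 RPKM, against 3.70 in sham, lowest at day 1 with a ratio of 0.400 (0.349 to 0.460). Kcnab3, the remaining beta subunit gene, had a log2 fold of -0.39 at day 10, the third lowest at that time. Kcnip2, which brings A-type channels of the Kcnd genes to the membrane, was at 58.8, 33.5, 31.3 and 38.5 RPKM, against 46.2 in sham. Its ratio at day 3 was 0.677 (0.642 to 0.714). Kcnip3, a calcium sensor also known as a transcriptional repressor, was at 28.5, 18.1, 16.2 and 19.8 RPKM, against 17.2 in sham, highest at 4 hours. Kcnmb4, the brain beta subunit of the large-conductance channel, had a log2 fold of 0.29 at day 1, and Kcnip1, another Kcnd partner, 0.23. The exons of Kcnmb4 overlap those of Kcnmb4os1 and Kcnmb4os2 on the opposite strand, which were at 24.4 and 7.72 RPKM at day 1, against 17.8 and 6.73 in sham.

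Calcium- and sodium-activated channels had 4 of 8 genes analysed, with medians of 0.33, -0.27, -0.35 and -0.13 at the 4 times. Kcnt1, the sodium-activated channel and the gene of highest level in the class, was at 7.00 RPKM at 4 hours, 3.66 on day 1, 3.25 on day 3 and 4.70 on day 10, against 5.24 in sham. Its ratio at day 3 was 0.620 (0.562 to 0.683). Kcnma1, the large-conductance channel, was at 0.924, 0.706, 0.605 and 0.834 RPKM, against 1.00 in sham, also lowest at day 3.

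Inward rectifiers had 6 of 11 genes analysed, with medians of 0.27, -0.44, -0.44 and -0.12 at the 4 times. Kcnj4, one of the channels that hold projection neurons near the potassium equilibrium potential, had the highest sham level of all 79 genes. It was at 95.1 RPKM at 4 hours, 45.5 on day 1, 48.4 on day 3 and 74.7 on day 10, against 84.8 in sham. Its ratio to sham was 0.537 at day 1 (0.510 to 0.565), 0.570 at day 3 (0.541 to 0.600) and 0.881 at day 10 (0.843 to 0.921). Kcnj2, of the same subfamily, was at 0.907, 0.515, 0.991 and 1.25 RPKM, against 1.10 in sham, below sham at day 1 and near it at day 3. Kcnj11, the pore of the channel that opens when ATP runs low, was at 9.18, 4.30, 4.12 and 5.45 RPKM, against 6.05 in sham. Kcnj8, the pore of the ATP-sensitive channel of pericytes and smooth muscle, was at 0.794, 1.16, 0.613 and 1.09 RPKM, against 0.970 in sham, highest at day 1 and lowest at day 3. The 7 pericyte and smooth muscle markers summed to 36.2, 48.5, 97.0 and 39.2 RPKM, against 35.7 in sham. Tagln alone made up 50.6 RPKM of the day 3 sum, against 6.44 in sham. The 5 markers analysed ran from a log2 fold of 0.02 for Pdgfrb to 2.79 for Tagln at day 3, with a median of 0.59. Abcc9 of the same list, below 1 RPKM in every library, was at 0.0396 RPKM at day 3, against 0.106 in sham. The part of these cells in the level of Kcnj8 was not tested.

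Two-pore-domain channels, which carry leak currents, had 8 of 10 genes analysed, with medians of 0.25, -0.12, -0.17 and -0.04 at the 4 times. The class held members at both ends. Kcnk2, a leak channel opened by stretch, acid inside the cell and arachidonic acid, was at 15.0 RPKM at 4 hours, 4.42 on day 1, 3.92 on day 3 and 6.61 on day 10, against 6.98 in sham. It was highest at 4 hours and below sham at days 1 and 3, with ratios of 2.15 (1.98 to 2.35) at 4 hours and 0.561 (0.496 to 0.633) at day 3. Kcnk1, abundant in astrocytes, was at 52.1, 22.8, 26.2 and 23.7 RPKM, against 26.2 in sham, high in the 4-hour library alone, with a ratio of 1.99 there (1.86 to 2.12). Kcnk2 and Kcnk1 stand just inside and just outside the 2-fold limit at 4 hours, with log2 folds of 1.01 and 0.96, and with median-of-ratios scaling these were 0.66 and 0.60.

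The 8 astrocyte markers had a median log2 fold of 0.07 at 4 hours and summed to 367 RPKM, against 380 in sham. They were not alike: 4 were above sham and 4 below, from -1.91 for Gfap to 0.74 for S100b. Gfap was at 26.3 RPKM, against 102 in sham, and Aldoc, the largest part of the 4-hour sum, at 219, against 179. The 7 oligodendrocyte markers had a median of 0.93 and summed to 1797 RPKM at 4 hours, against 1021 in sham, and the 6 choroid plexus markers, mostly Ttr, summed to 740, against 79.4. None of the markers of these 3 lists was at 0 in any library, and their part in the levels of Kcnk1 and Kcnk2 was not tested. Exons of Kcnk2 and Kcnk1 share 12.2% and 8.01% of their length with genes on the opposite strand.

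Kcnk9, an acid-sensitive leak channel, was at 1.10, 0.554, 0.489 and 1.09 RPKM, against 1.09 in sham, lowest at day 3. Kcnk3, its close relative, was at 3.40, 3.19, 2.03 and 2.66 RPKM, against 2.66 in sham, and so above sham at day 1. Kcnk4, a mechanosensitive leak channel, was at 1.32, 1.96, 0.731 and 0.571 RPKM, against 0.922 in sham, the highest log2 fold of the 50 genes at day 1, 0.63. The exons of Kcnk4 share 13.1% of their length with Catsperz on the same strand, its reads did not come out whole, and no interval is given.

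The 7 genes known from striatal projection neurons, Kcnj2, Kcnj4, Kcnd2, Kcnip2, Kcnh4, Kcnab1 and Kcna4, had a median log2 fold of 0.04 at 4 hours, -0.70 on day 1, -0.61 on day 3 and -0.13 on day 10. The list was written with earlier results of these libraries known and is not independent evidence of its direction. Kcnd2, the A-type channel of their dendrites, was at 3.13, 1.54, 1.70 and 2.77 RPKM, against 3.12 in sham, with a ratio of 0.495 at day 1 (0.412 to 0.592). Its relative Kcnd1 was at 1.42, 0.772, 1.16 and 1.13 RPKM, against 1.04 in sham. The 14 markers of these neurons, all of them analysed and none at 0 in any library, had medians of 0.29, -0.92, -0.53 and -0.21. Both sets were lowest at day 1. With median-of-ratios scaling the medians at days 1 and 3 were -0.63 and -0.69 for the 7 genes and -0.82 and -0.67 for the 14 markers. At 4 hours that scaling turned both medians below 0, to -0.26 for the 7 genes and -0.06 for the 14 markers. All 7 genes were then below sham, where 48.8% of all genes were. The 10 markers of neurons in general had medians of 0.41, -0.33, -0.56 and -0.17, and those of cortical excitatory neurons 0.69, 0.51, -0.16 and -0.19. The part of neuron number in the channel values was not tested.

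**Figure D3:**
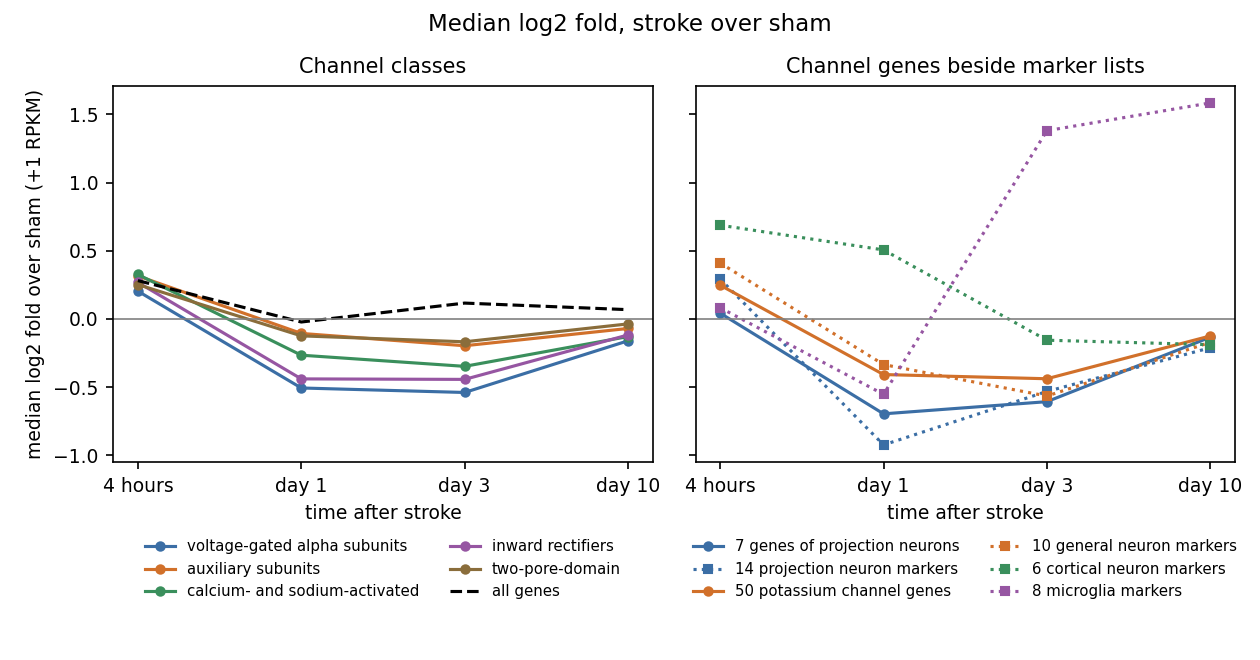
Median log2 fold against sham (vertical axis) at the 4 times (horizontal axis), left for the 5 channel classes and all genes, right for the potassium channel genes and marker lists. The voltage-gated genes lie lowest at days 1 and 3 (-0.51 and -0.54), and at day 1 the 7 genes known from projection neurons are at -0.70 beside -0.92 for the projection neuron markers.

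Of 5 genes known from microglia, macrophages or lymphocytes, Kcnk13, Kcnk6 and Kcnn4 were higher than sham at days 3 and 10. Kcnk13, the leak channel that sets the resting potential of microglia, was at 2.51 RPKM at 4 hours, 1.73 on day 1, 3.70 on day 3 and 2.78 on day 10, against 1.97 in sham. Its ratio to sham was 1.88 at day 3 (1.52 to 2.33) and 1.41 at day 10 (1.13 to 1.75). Kcnk6, a leak channel through which macrophages lose potassium before the inflammasome forms, was at 0.540, 0.234, 0.764 and 1.15 RPKM, against 0.343 in sham, highest at day 10. Its ratio was 2.23 at day 3 (1.44 to 3.51) and 3.35 at day 10 (2.26 to 5.14), while its log2 fold with the pseudocount was 0.39 and 0.68. Kcnn4, the intermediate-conductance calcium-activated channel of microglia and T cells, had 10 reads at 4 hours, 1 on day 1, 42 on day 3 and 46 on day 10, against 10 in sham. Its ratio was 4.46 at day 3 (1.64 to 15.2) and 4.30 at day 10 (1.60 to 14.5), at a level under 0.2 RPKM. Kcna3, the Shaker channel of T cells and activated microglia, had 10, 11, 13 and 22 reads, against 33 in sham, highest in sham. Kcne3, an auxiliary subunit, had 0, 12, 9 and 4 reads, against 5 in sham, too few to order the libraries.

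The 8 microglia markers summed to 80.5 RPKM at 4 hours, 45.5 on day 1, 272 on day 3 and 271 on day 10, against 66.6 in sham. The 8 monocyte and macrophage markers summed to 25.2, 96.9, 347 and 353 RPKM, against 31.1 in sham. No microglia marker was at 0 in any library, and 1 monocyte and macrophage marker was at 0 at 4 hours. The part of these cells in the values of Kcnk13, Kcnk6 and Kcnn4 was not tested.

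Kcne1l stood furthest above sham of the 50 genes at any time. It encodes a small accessory subunit of voltage-gated channels, and lies on the X chromosome. It was at 6.45 RPKM at 4 hours, 4.25 on day 1, 5.98 on day 3 and 16.6 on day 10, against 6.04 in sham. Day 10 was the one high library, with a ratio of 2.75 to sham (2.34 to 3.23) and a log2 fold of 1.32, which was 1.18 with median-of-ratios scaling. The other 3 stroke libraries lay between 4.25 and 6.45 RPKM.

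**Figure D4:**
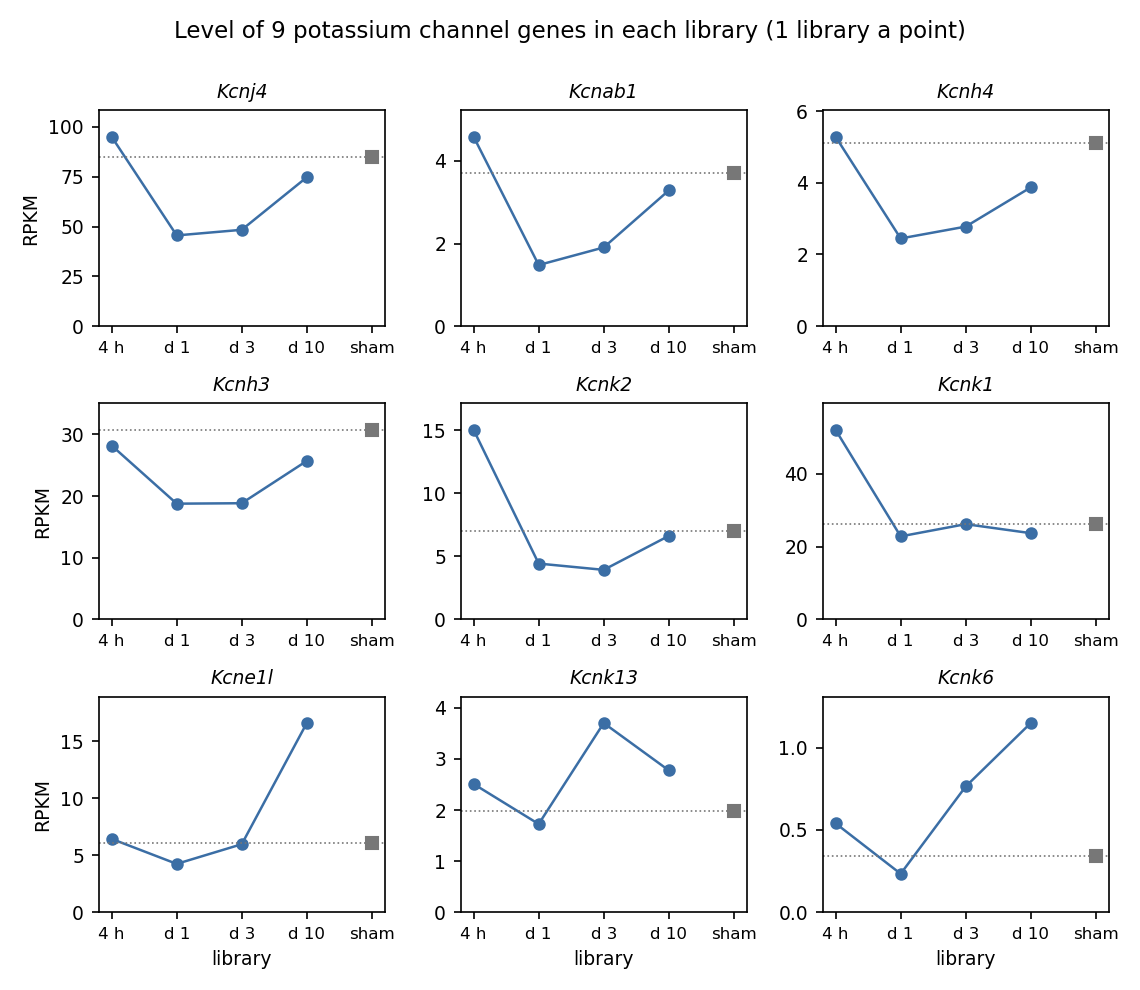
RPKM (vertical axes, each from 0) of 9 potassium channel genes in the 5 libraries (horizontal axes, 1 library a point, with sham as the square and dotted line). Kcnj4, Kcnab1, Kcnh4 and Kcnh3 are low at days 1 and 3, Kcnk2 and Kcnk1 are high at 4 hours, Kcnk13 is highest at day 3, and Kcne1l and Kcnk6 are highest at day 10.

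Between successive times, potassium channel genes were lower at day 1 than at 4 hours, stood below day 1 at day 3 by a step that depended on the scaling, and were mostly higher at day 10 than at day 3. At least 2-fold lower at day 1 than at 4 hours were 6 of the 50, Kcnk2, Kcna5, Kcng1, Kcnab1, Kcnk1 and Kcnj4, where 5.7% of all genes were, and 0 were 2-fold higher, against 2.7%. Lower by any amount were 47 (94%), against 72.4% of all genes, and at -0.5 or less were 28 (56%), against 32.4%. None was at 0.5 or more, where 8.93% of all genes were. The median log2 fold of day 1 over 4 hours was -0.55, against -0.31 for all genes, and -0.23 with median-of-ratios scaling. No gene of the 50 was 2-fold higher or lower at day 3 than at day 1, where 7.46% and 0.939% of all genes were. Lower by any amount were 34 (68%), against 35.9% of all genes, with a median of -0.09, against 0.13 for all genes. With median-of-ratios scaling the median was -0.26, against -0.05 for all genes, with 42 (84%) lower and 9 (18%) at -0.5 or less, against 55.6% and 11.9% of all genes. At 0.5 or more were 2 genes, Kcnk13 at 0.79 and Kcnk6 at 0.52, against 20.8% of all genes. At -0.5 or less were 2 genes, Kcnk4 and Kcnj9, an inward rectifier gated by G proteins, which was at -0.58, against 5.59% of all genes.

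At day 10, 44 of the 50 (88%) were higher than at day 3, against 48.5% of all genes. With median-of-ratios scaling 44 were higher as well and 6 lower (12% lower, against 52.5% of all genes). The median log2 fold of day 10 over day 3 was 0.32, against -0.01 for all genes. At least 2-fold higher was 1 gene, Kcne1l at 1.34, where 0.626% of all genes were, and 0 were 2-fold lower, against 2.77%. At 0.5 or more were 9 genes (18%), against 6.09% of all genes, and 0 at -0.5 or less, against 13%. Kcnab1 had a ratio of 1.72 (1.51 to 1.97), Kcnk2 of 1.69 (1.50 to 1.91) and Kcnj4 of 1.55 (1.47 to 1.63). Kcnk13 was at 0.750 (0.617 to 0.902) and Kcng4 at 0.438 (0.301 to 0.650), the reverse direction. The comparisons with sham and those between successive times share libraries and are not separate evidence.

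The 29 genes below 1 RPKM in every library were 11 voltage-gated, 6 auxiliary, 5 inward rectifier, 4 calcium- or sodium-activated and 2 two-pore-domain genes, and Kcnq1ot1, the noncoding one. Kcne2, an auxiliary subunit known from the choroid plexus, had 37 reads at 4 hours, 11 on day 1, 0 on day 3 and 0 on day 10, against 2 in sham. A count of 0 allows up to 3 read pairs, or 0.0803 RPKM at day 3 and 0.0707 at day 10. The ratio of 4 hours to sham was 18.1 (2.95 to 772), and the reads followed the order of Ttr given above. Kcnj13, the choroid plexus rectifier that the rule leaves out, was at 2.31, 0.901, 0.0932 and 0.0164 RPKM, against 0.210 in sham. Kcnj16, an astrocyte rectifier that pairs with Kcnj10, had 64, 35, 82 and 66 reads, against 36 in sham, with a ratio of 2.42 at day 3 (1.36 to 4.48). Kcnj10, the main astrocyte rectifier and also outside the rule, was at 6.37, 2.87, 7.16 and 7.74 RPKM, against 6.20 in sham, lowest at day 1. Kcnmb1, the smooth muscle beta subunit, had 15, 9, 25 and 10 reads, against 9 in sham, and Kcnc2, a fast-spiking channel gene, was at 0.473, 0.242, 0.222 and 0.324 RPKM, against 0.296 in sham.

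Genes whose products assemble with potassium channels or move potassium were set beside them, as a list of 28, of which 19 were analysed. Their median log2 fold was 0.38 at 4 hours, -0.37 on day 1, -0.38 on day 3 and -0.14 on day 10. The medians of all genes were 0.28, -0.02, 0.12 and 0.07. With median-of-ratios scaling the medians of the 19 were 0.07, -0.27, -0.46 and -0.25. At least 2-fold higher was 1 of the 19 at 4 hours, Kcnj13, where 2.2% of all genes were. It was 0 at the other times, where 3.33%, 9.04% and 4.2% of all genes were. At least 2-fold lower were 0 at any time, where 1.09%, 1.35%, 0.618% and 0.172% of all genes were. Slc12a5, the potassium-chloride exporter of neurons, had log2 folds of 0.34, -0.54, -0.77 and -0.14. Dpp6, a partner of the A-type channels, was at 0.79, -0.75, -0.63 and -0.28, and Atp1b1, a subunit of the sodium-potassium pump, at 0.96, -0.37, -0.86 and -0.28. All 3 were furthest below sham at day 1 or day 3.

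The authors' deposited table also gives GFOLD, a log2 fold shrunk towards 0 where reads are few. In the authors' deposited table, GFOLD was above 0 for 46 of the 79 genes at 4 hours and below 0 for 8, against 49.8% and 10.5% of all 19221 genes. At day 1 the authors' deposited table has 11 above and 46 below, against 24.6% and 32.3% of all genes, and at day 3 it has 7 above and 44 below, against 37.2% and 22.5%. At day 10 the authors' deposited table has 7 above and 26 below, against 31.3% and 13.0% of all genes.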

How the data were processed

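RNA of 5 pooled caudate putamen samples was sequenced as total RNA after Trizol extraction, per the labels' protocols. StringTie 1.3.4d, HISAT2 2.1.0, Trimmomatic 0.36 and the build GRCm38 appear, per the submitters' processing notes, with no roles. Per the file headers, the authors deposited 1 RPKM value per gene and library, and a log2 fold and a GFOLD value (a log2 scale, at the setting 0.01) for pairs of libraries. Whether strand was used was not stated in the labels.

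Folds were log2 ratios of the deposited RPKM with a pseudocount of 1, over genes of at least 1 RPKM in at least 1 library, and 2-fold was a log2 fold of 1. With 1 library per group no p-value, SD or SE was computed. RPKM times the union exon length of GENCODE release 21 (GRCm38, which held all 79 identifiers) gave whole reads, within 0.02, for 90.4% to 90.5% of values below 5000 reads. Ratio intervals are exact conditional binomial at 95%, on reads divided by 2 since mates of a pair appear counted separately (54.5% to 56.5% of the read numbers from 1 to 20 were even). They are given where reads were whole or at least 1000. They cover counting error only. Where a symbol of a marker list had more than 1 entry, the one of higher summed RPKM was used. Scripts ran in Python 3.11.15 with pandas 2.3.3, numpy 2.4.6 and scipy 1.17.1, and were tested on simulated data.

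The genes, the marker and partner lists and the limits were chosen with earlier results of these data known. The genes named are those past 2-fold, the 5 highest and 5 lowest at each time, the 5 of highest sham level, the highest of each class and a list of genes of known role. Some genes that this rule takes in are not reported here by name, but stay in all counts and medians. Kcnj9, Kcnj11, Kcnf1 and Kcnk9 were named after their values were seen. Alternatives were median-of-ratios, trimmed-mean-of-M-values and composition scaling, a pseudocount of 0.1 or 0.5, a floor of 5 RPKM or none, and, chosen after seeing the data, the GFOLD value and the limit of 0.5.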

Additional observations from a re-analysis of the deposited data

Results flagged for a closer look

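For 4 genes the stroke libraries lay on opposite sides of sham, by 0.5 or more on the log2 scale each way, which is 8% of the 50 genes and close to the 6.24% of all 12783 genes. With 1 library per time the difference between times was not tested, and the values share the sham library. Kcna5 was at 0.56 at 4 hours and -0.95 at day 1. Kcnf1 was at 0.59 at 4 hours and -0.61 at day 3, and Kcng1 at 0.79 at 4 hours and -0.68 at day 3. Kcnk2 was at 1.01 at 4 hours and -0.70 at day 3. With median-of-ratios scaling the 4-hour values of Kcna5, Kcnf1, Kcng1 and Kcnk2 were 0.25, 0.27, 0.46 and 0.66, and the later values -0.88, -0.71, -0.78 and -0.81, so with it Kcnk2 alone of the 50 passed 0.5 each way (2%, against 5.78% of all genes).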

How the results depend on the processing

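The median log2 fold of potassium channel genes was negative at days 1 and 3 under every setting run, and the 4-hour median depended on the scaling. The 2-fold counts below are of potassium channel genes alone. No share of all genes is given for these settings, so the counts do not show whether all genes moved alike. Median-of-ratios scaling gave medians of -0.0174 at 4 hours and -0.23 at day 10, and trimmed-mean-of-M-values scaling -0.0088 and -0.21. Under each of these, 0 genes were 2-fold higher at 4 hours, 1 was 2-fold lower at day 3, and 3 were 2-fold lower at day 1 than at 4 hours. Composition scaling, without predicted, mitochondrial, ribosomal and small RNA genes, gave medians of 0.17 at 4 hours and -0.19 at day 10, with 0 genes 2-fold higher at 4 hours and 1 lower at day 3. A pseudocount of 0.1 gave medians of 0.34, -0.50, -0.61 and -0.15 at the 4 times. With it, 1 gene was 2-fold higher at day 1 and 2 at day 10, and 4 were lower at day 1 and 3 at day 3. Between times it gave 14 lower at day 1 than at 4 hours, 2 higher and 1 lower at day 3 than at day 1, and 2 higher and 1 lower at day 10 than at day 3. A pseudocount of 0.5 gave 2 lower at day 1, 10 lower at day 1 than at 4 hours and 1 lower at day 3 than at day 1. Without a filter the medians were 0.18, -0.18 and -0.22 at 4 hours, day 1 and day 3, and with a floor of 5 RPKM the 4-hour median was 0.38. The authors' deposited GFOLD value gave medians of 0.15 at 4 hours and 0 at day 10, with 2 genes 2-fold higher at day 10, 1 higher at day 3 than at day 1, 2 lower at day 1 and 1 lower at day 3. The cause of these shifts was not tested, beyond the change of genes or pseudocount itself. No paired analysis was possible because each group has 1 library. For the same reason no library could be left out. Depth limits the genes of few reads: Kcnn4, Kcne2, Kcna3 and Kcne3 rest on 0 to 46 reads a library.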
